A study of Homo sapiens with 6 samples.

Results

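Matrix proteases, the plasminogen system and their inhibitors were examined as a group of 32 genes, chosen by gene symbol from 20046 genes that have a probe of 1 symbol on the array. The genes encode 11 matrix metalloproteinases (MMPs), 7 proteases of the ADAM and ADAMTS families, 3 genes of plasminogen activation, 2 serpins, 3 tissue inhibitors of metalloproteinases (TIMPs), heparanase with 2 lysyl oxidases, and 3 partners that act on these enzymes. Transcript levels came from A549 cells, an established human lung adenocarcinoma line that makes NME2 of its own. The control group had received the plasmid pcDNA-MYC. The other group, labelled NME2 induced, had received pcDNA-NME2-MYC, a plasmid for NME2 (NM23-H2) with a MYC tag; NME2 is a nucleoside diphosphate kinase known as a metastasis suppressor. RNA of both groups was taken 48 h after transfection from whole cultures, with 3 arrays per group, described by the submitters as biological replicates, each hybridized to an Illumina HT-12 v4 bead array.

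Invasive cells cross a basement membrane by cutting it. MMPs are zinc enzymes made as inactive precursors; secreted ones digest collagens, laminins and proteoglycans, while membrane-type ones act at the cell surface and activate others. Urokinase and tissue plasminogen activator turn plasminogen into plasmin, which digests fibrin and activates several MMP precursors. ADAM proteases release the outer parts of membrane proteins such as growth factors, and TIMPs and serpins hold these activities in check. Given the known role of NME2 in metastasis suppression, the comparison asks whether transcripts of this system differ between the groups.

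Of the 32 genes, 20 were detected well enough to be tested, and 0 of the 20 differed between the groups past the adjusted threshold. A gene was tested if a probe had a detection p-value under 0.05 on at least 3 of the 6 arrays, and where it had several, the brightest of them over the 6 arrays stood for it. The test was limma, 2-sided, fitted over all 11358 genes that met this rule, with Benjamini-Hochberg adjustment over all of them; it called 0.247% of all genes, 0.158% as higher and 0.0880% as lower. At an unadjusted p under 0.05, limma gave 1 member higher (TIMP1) and 3 lower (ADAM9, ADAM10 and BSG), or 4 of the 20, where it gave 14.5% of all genes (7.30% higher and 7.17% lower). With the methods' t-test 0 were higher and 3 lower before adjustment and 0 remained after it, while 13.8% of all genes were called by that test before adjustment. The median log2 fold change of the 20 members was 0.06, with a median of 0.00 over all genes. A log2 fold change is positive where the arrays labelled NME2 induced were brighter than the controls, and rests on log2 values of background-corrected signals to which an offset of 16 had been added, so that the change of dim probes is understated.

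The arrays did not settle whether NME2 transcript was raised, so the groups are named by their labels. The brightest NME2 probe over all arrays was at 7.34, 7.32 and 7.28 in control replicates 1 to 3 and at 8.48, 8.29 and 8.28 in those labelled NME2 induced, while the brightest probe of the NME1-NME2 readthrough was at 12.79, 12.63 and 12.61 against 10.69, 10.62 and 10.76. The one was higher and the other lower in every array labelled NME2 induced, with limma adjusted p of 0.00642 for NME2 and 0.000154 for NME1-NME2. The log2 fold change was -0.59 and 0.26 for the further probes of NME2, and -1.89 for the further probe of NME1-NME2. Between 19043 and 20726 of 47231 probes were detected per array. Along the first principal component, which held 32.6% of the variance, NME2 induced replicate 3 lay at 16.4 and the other arrays of its group at 5.62 and 8.02. Of 11 markers fixed for a lung epithelial carcinoma line, 7 were tested: EPCAM, KRT8, KRT19, CDH1, NQO1, AKR1B10 and ALDH1A1. Their summed signals were 41560 to 42920 in control arrays and 38940 to 41740 in those labelled NME2 induced, with overlap. At an unadjusted limma p under 0.05, 2 of the 7 differed, where 14.5% of all genes did. CDH1 was higher (log2 fold change 0.40) and KRT19 lower (-0.23), with limma adjusted p of 0.173 and 0.301. KRT18 was detected on 0 control arrays and, by any of its probes, on at most 1 labelled NME2 induced, and was not tested. AKR1C1 and the alveolar genes NKX2-1 and SFTPC were detected on 0 arrays and were likewise not tested. Of 8 fibroblast markers 4 were tested, with summed signals of 199.2 to 207.9 in control arrays and 192.6 to 235.1 in those labelled NME2 induced. Of 8 leukocyte markers 3 were tested (CD68, CD14 and ITGAM), with sums of 1941 to 2055 against 2076 to 2255, so that these groups did not overlap. Taken singly, 22.0% of all genes had groups without overlap. The log2 fold changes of the 3 were 0.11, 0.23 and 0.08, with limma adjusted p of 0.536, 0.383 and 0.916. At an unadjusted limma p under 0.05 there were 0 of them. PTPRC was detected on 1 array and CD3E on 0, and the part of these transcripts in the results was not tested. Of 4 endothelial markers 0 were tested. The signal is that of RNA pooled over many cells, in which fewer expressing cells and less RNA per cell cannot be told apart.

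Detection divided the MMPs. The secreted MMPs are the collagenases MMP1 and MMP13, the stromelysins MMP3 and MMP10, the matrilysin MMP7, and the gelatinases MMP2 and MMP9; MMP7 and MMP10 were the only 2 of these 7 to be tested. Of the membrane-type enzymes, MMP15 and MMP24 were tested and MMP14 and MMP16 were not. The share of members tested was 62.5%, against 56.7% of all genes with a probe of 1 symbol. The 12 members that were not tested were MMP1, MMP2, MMP3, MMP9, MMP13, MMP14, MMP16, ADAM8, ADAMTS1, SERPINB5, LOXL1 and LOXL2. For MMP1, MMP2, MMP9, MMP14, ADAMTS1, SERPINB5, LOXL1 and LOXL2, 0 of 6 arrays were below a detection p-value of 0.05. The lowest detection p-value of MMP14, the main surface activator of pro-MMP2, was 0.554, and that of MMP2 was 0.0904. With 1 probe for most of these genes, the absence of a detected signal concerns that probe.

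**Figure D1:**
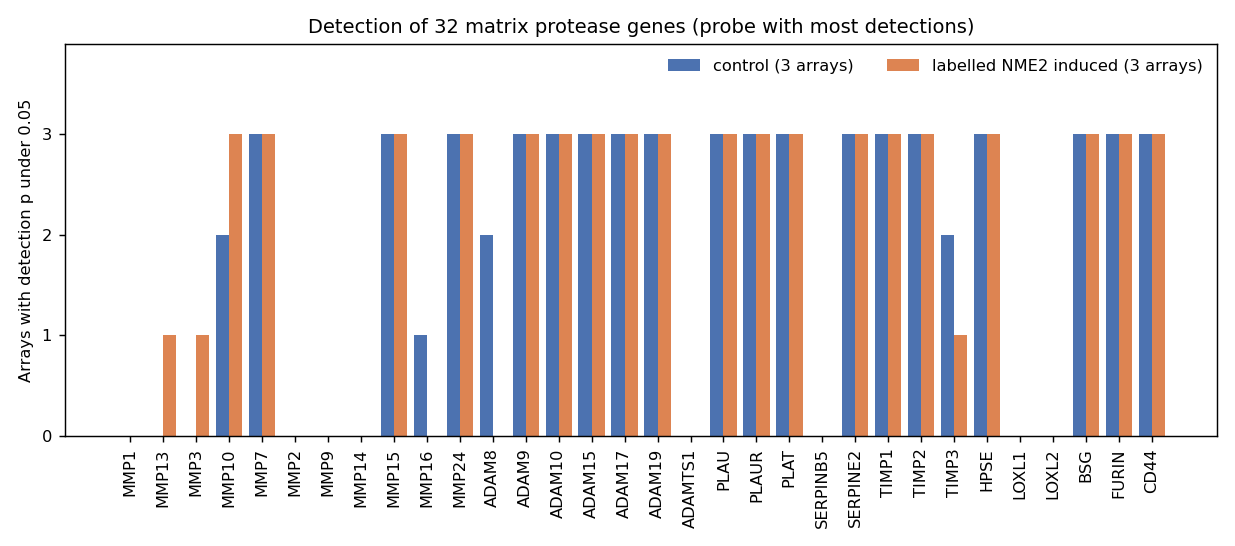
Number of arrays (0 to 3, vertical axis) on which each of the 32 genes was detected at a p-value under 0.05, for control arrays and arrays labelled NME2 induced, by the probe with most detections. MMP7 was detected on all 6 arrays, and MMP1, MMP2, MMP9 and MMP14 on 0.

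Among the genes not tested, 4 were seen on 1 or 2 arrays. The deposited signal of MMP13 was 29.73 on NME2 induced replicate 2 and between -1.17 and 9.78 on the other 5 arrays. MMP13 was not detected on any control array, and was measured on 1 of the 3 arrays of the other group, so no fold is given. MMP3 was detected on NME2 induced replicate 3 alone, at 13.57. MMP16 was detected on control replicate 3 alone, at 14.72. ADAM8, a protease of leukocytes and invasive tumour cells, was detected on 2 control arrays, at 13.29 and 12.82, and its signals on the arrays labelled NME2 induced, at 7.71, 11.11 and 8.16, lay above that of control replicate 2, at -0.63.

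The genes of MMP1, MMP3, MMP7, MMP10 and MMP13 lie in one cluster on chromosome 11. MMP promoters of this kind are known for a TATA box and for a site of AP-1, the dimer of FOS and JUN proteins, and the upstream sequences of the 2 cluster members that were measured are therefore shown, with PLAUR and TIMP1 beside them. The stretch of PLAUR lies farther upstream than the others, around its TGANTCA match. Only exact matches are marked, so variants of these patterns are left unmarked. RefSeq promoter windows (GRCh38.p14) were matched for 21 of the 32 genes. The 11 without a window were not searched: MMP1, MMP2, MMP3, MMP9, MMP13, MMP16, ADAM9, ADAMTS1, PLAT, TIMP2 and LOXL2. The 100 bases shown end just before the transcription start for MMP7 (chr11:102530748-102530847, minus strand), MMP10 (chr11:102780629-102780728, minus strand) and TIMP1 (chrX:47582336-47582435, plus strand), and run from 220 to 121 bases upstream for PLAUR (chr19:43670290-43670389, minus strand). They read 5′ to 3′ on the strand of the gene, and capitals mark TGANTCA, the AP-1 core, TATAAA and, in TIMP1 alone, GGGCGG (the GC box core, here on the opposite strand).
MMP7: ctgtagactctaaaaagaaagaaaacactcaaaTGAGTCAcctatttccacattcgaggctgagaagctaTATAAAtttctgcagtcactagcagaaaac
MMP10: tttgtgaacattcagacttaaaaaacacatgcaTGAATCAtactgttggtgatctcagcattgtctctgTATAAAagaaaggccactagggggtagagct
PLAUR: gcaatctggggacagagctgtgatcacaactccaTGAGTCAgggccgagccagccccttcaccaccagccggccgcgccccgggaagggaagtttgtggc
TIMP1: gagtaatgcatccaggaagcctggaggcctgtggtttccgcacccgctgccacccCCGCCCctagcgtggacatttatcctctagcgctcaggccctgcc
In MMP7 and MMP10 the TGANTCA match began 67 bases upstream of the start, and TATAAA began 30 and 31 bases upstream. Searched on both strands over 250 upstream bases, TGANTCA occurred in 4 of the 29 windows of these genes (in MMP7, MMP10, PLAUR and SERPINB5) and in 6.57% of 35116 windows of all genes. TATAAA occurred in 5 of the 29 (in BSG, FURIN, HPSE, MMP7 and MMP10) and in 10.7% of all windows, and GGGCGG in 19 of the 29 and in 42.6% of all windows. Some genes have several windows. The 3 letter patterns overlap nowhere in the stretches shown. A match is a description of these letters and not of a bound site.

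The 2 secreted MMPs measured had somewhat higher means in the arrays labelled NME2 induced, within the spread between replicates. MMP7, which cuts E-cadherin and fibronectin, was at 7.87, 7.98 and 8.12 in control replicates 1 to 3 and at 8.37, 8.14 and 7.99 in NME2 induced replicates 1 to 3. The groups overlapped, since NME2 induced replicate 3 lay below control replicate 3. The log2 fold change of MMP7 was 0.18 (moderated SE 0.12, 95% interval -0.10 to 0.46, adjusted p = 0.525 in limma). MMP10, an activator of other MMP precursors, was near the detection limit, at 5.14, 5.47 and 4.80 against 5.38, 5.21 and 5.64, and was detected on 2 control arrays and 3 labelled NME2 induced. The difference in MMP10 was a log2 fold change of 0.28 (moderated SE 0.18, 95% interval -0.14 to 0.70, adjusted p = 0.517 in limma). With 1 array left out, MMP10 lay between 0.11 (without control replicate 3) and 0.44 (without control replicate 2), and with an offset of 50 it was at 0.14. MMP7 lay between 0.077 (without NME2 induced replicate 1) and 0.27 (without NME2 induced replicate 3).

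The membrane-type enzymes MMP15 and MMP24 were close in the groups. MMP15 was at 6.18, 6.05 and 6.22 in control arrays and at 6.39, 6.30 and 6.24 in those labelled NME2 induced, so the groups did not overlap, though the nearest arrays were close. Its log2 fold change was 0.16 (moderated SE 0.09, adjusted p = 0.437 in limma). MMP24, known mainly from neural tissue, had a log2 fold change of 0.11 (moderated SE 0.10, adjusted p = 0.634 in limma), with overlapping groups. Over the 20 members, groups did not overlap for 6, 3 higher and 3 lower, which is 30.0%, as against 22.0% of all genes (11.3% higher and 10.7% lower).

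Of the ADAM proteases, ADAM9 and ADAM10 had lower means in the arrays labelled NME2 induced. ADAM9, a membrane sheddase that also binds integrins, was at 6.39, 6.09 and 6.33 in control arrays and at 6.04, 5.76 and 5.58 in those labelled NME2 induced. Every array of the second group lay below every control array, although NME2 induced replicate 1 and control replicate 2 differed by little. The means were 6.27 ± 0.16 and 5.80 ± 0.23 (SD, n = 3 each), a 1.39-fold lower signal, which in this setting was the largest difference among the 20 members (log2 fold change -0.47, moderated SE 0.14, 95% interval -0.79 to -0.15, adjusted p = 0.212 in limma). The lowest value was that of NME2 induced replicate 3, the array that lay farthest out on the first principal component; without it the log2 fold change was -0.37 (adjusted p = 0.372 in limma). With an offset of 50 it was -0.31, and with that offset and a background correction without detection p-values -0.27, as it was for BSG.

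ADAM10 releases the outer parts of Notch, E-cadherin and the amyloid precursor protein. It was at 8.94, 8.69 and 8.89 in control arrays and at 8.60, 8.60 and 8.52 in those labelled NME2 induced. The groups did not overlap, and the arrays labelled NME2 induced were close together. The means were 8.84 ± 0.13 and 8.57 ± 0.04 (SD, n = 3 each), with a log2 fold change of -0.27 (moderated SE 0.09, 95% interval -0.48 to -0.05, adjusted p = 0.276 in limma). Without NME2 induced replicate 3 the value was -0.24 (adjusted p = 0.425 in limma).

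The other ADAM proteases tested lay near 0. ADAM17, or TACE, which releases TNF and ligands of the EGF receptor, had a log2 fold change of 0.05 (moderated SE 0.11, 95% interval -0.20 to 0.30). ADAM15 was at 0.00 (moderated SE 0.09, 95% interval -0.20 to 0.21) and ADAM19, a sheddase of neuregulin, at 0.06 (moderated SE 0.09, 95% interval -0.13 to 0.26). Groups overlapped for all 3, with limma adjusted p of 0.856, 0.992 and 0.758.

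All 3 genes of plasminogen activation were detected on all 6 arrays. PLAU, or urokinase, was at 10.95, 10.72 and 10.67 in control arrays and at 10.96, 10.77 and 10.91 in those labelled NME2 induced, and its groups overlapped (log2 fold change 0.10, moderated SE 0.10, 95% interval -0.14 to 0.34, adjusted p = 0.674 in limma). PLAUR, the receptor that holds urokinase at the cell surface, was at 8.61, 8.44 and 8.63 against 8.52, 8.56 and 8.81 (log2 fold change 0.07, moderated SE 0.11, adjusted p = 0.795 in limma). PLAT, the tissue plasminogen activator, was at 6.55, 6.42 and 6.53 against 6.88, 6.64 and 6.59. The groups of PLAT did not overlap, and NME2 induced replicate 1 stood above the other arrays (log2 fold change 0.20, moderated SE 0.10, 95% interval -0.03 to 0.44, adjusted p = 0.407 in limma). Without NME2 induced replicate 1 the log2 fold change of PLAT was 0.11. The serpin SERPINE2, or protease nexin-1, which blocks thrombin and urokinase, was at 12.81, 13.004 and 12.95 against 12.72, 12.82 and 12.80 (log2 fold change -0.14, moderated SE 0.09, 95% interval -0.34 to 0.06, adjusted p = 0.482 in limma). SERPINB5, or maspin, was not detected.

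TIMP1, a secreted inhibitor of most MMPs, was at 11.83, 11.84 and 11.62 in control arrays and at 11.92, 12.005 and 12.13 in those labelled NME2 induced. The groups did not overlap, and the highest value was again that of NME2 induced replicate 3. The means were 11.76 ± 0.12 and 12.02 ± 0.11 (SD, n = 3 each), a 1.19-fold higher signal (log2 fold change 0.25, moderated SE 0.10, 95% interval 0.02 to 0.48, adjusted p = 0.311 in limma), and without NME2 induced replicate 3 the log2 fold change was 0.20 (adjusted p = 0.502 in limma). The members at an unadjusted p under 0.05 also depended on single arrays: with 1 array left out, between 0 and 2 were higher and between 1 and 3 lower, where between 11.1% and 14.3% of all genes were called in either direction. There were 0 higher without control replicate 3 or NME2 induced replicate 2, 2 higher without control replicate 2, and 1 lower without NME2 induced replicate 3. TIMP2, which inhibits MMP2 and also takes part in its activation, was at 11.89, 11.75 and 11.61 against 12.01, 11.76 and 11.63 (log2 fold change 0.05, moderated SE 0.12, adjusted p = 0.869 in limma). TIMP3, which is bound to the matrix and inhibits ADAM17, was detected on 2 control arrays and 1 labelled NME2 induced, and had a log2 fold change of -0.08 (moderated SE 0.18, adjusted p = 0.857 in limma).

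BSG (basigin, or EMMPRIN), a surface glycoprotein known to induce MMPs in neighbouring fibroblasts, had a lower mean in the arrays labelled NME2 induced. It was at 9.88, 10.05 and 9.84 in control arrays and at 9.62, 9.78 and 9.52 in the others. The groups did not overlap, and NME2 induced replicate 3 was lowest. The means were 9.93 ± 0.11 and 9.64 ± 0.13 (SD, n = 3 each), a 1.22-fold lower signal (log2 fold change -0.28, moderated SE 0.10, 95% interval -0.52 to -0.04, adjusted p = 0.287 in limma). Without NME2 induced replicate 3 the log2 fold change was -0.22 (adjusted p = 0.465 in limma).

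FURIN, the convertase that removes the propeptide of membrane-type MMPs and of many ADAMs, was at 7.28, 7.51 and 7.16 in control arrays and at 7.09, 7.22 and 7.11 in those labelled NME2 induced. Its groups overlapped (log2 fold change -0.18, moderated SE 0.11, adjusted p = 0.482 in limma). Without control replicate 2 the log2 fold change of FURIN was -0.081. HPSE, or heparanase, which cuts heparan sulfate chains, had a log2 fold change of 0.11 (moderated SE 0.13, adjusted p = 0.734 in limma). Without control replicate 1 that of HPSE was 0.00044. The lysyl oxidases LOXL1 and LOXL2, which cross-link collagen and elastin, were not detected. CD44, the hyaluronan receptor that also docks MMPs at the surface, had a log2 fold change of 0.03 by its brightest probe (moderated SE 0.08, 95% interval -0.15 to 0.22, adjusted p = 0.869 in limma).

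**Figure D2:**
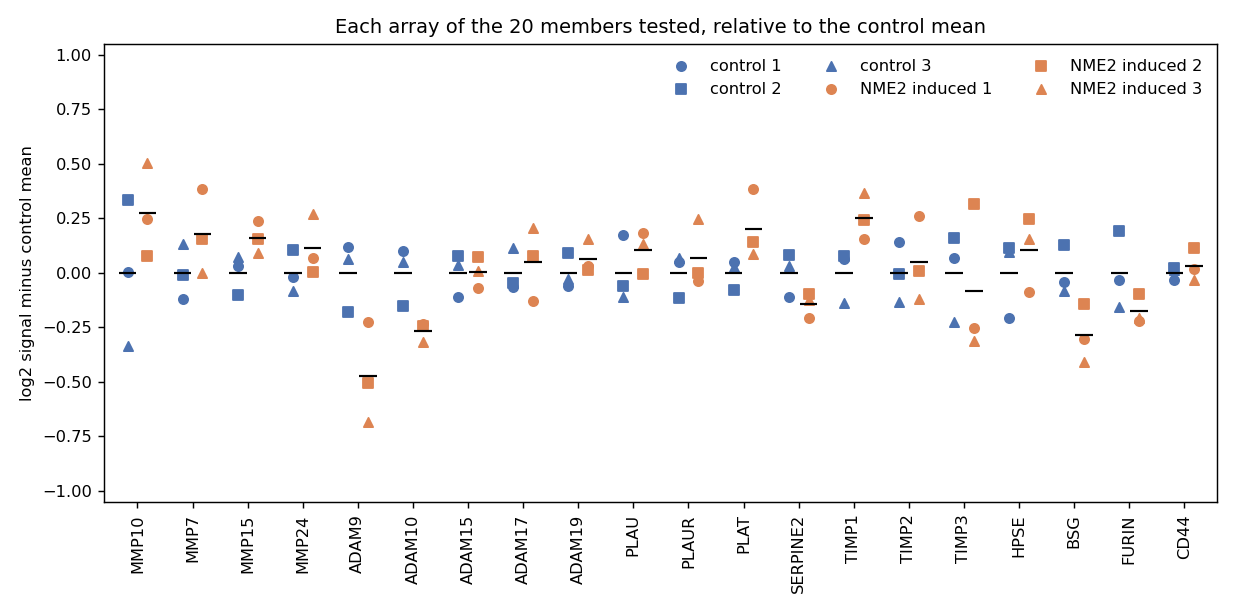
The log2 signal of each array minus the control mean of the same gene (vertical axis), for the 20 genes tested; symbols mark the replicate number, colours the group, and black lines the group means. ADAM9, ADAM10 and BSG lie below all control arrays in the arrays labelled NME2 induced, and TIMP1, PLAT and MMP15 above.

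On the scale with the offset of 16, and for the brightest probe, the unadjusted 95% interval of all 20 members lay within a 2-fold change in either direction, as it did for 99.2% of all genes. The interval of the second ADAM10 probe went beyond it, to -1.003. For MMP10, HPSE and TIMP3, whose deposited signals lay between 11.36 and 34.04, 12.85 and 24.14, and 7.33 and 22.68, the offset is of the size of the signal, and the interval does not bound the change of the transcript. The lowest bound was -0.79, of ADAM9, and the highest 0.70, of MMP10. The SE of members lay between 0.08 and 0.18, with a median of 0.10 beside 0.11 over all genes. Of the 20 members 14 had a log2 fold change above 0, where 50.3% of all genes did.

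**Figure D3:**
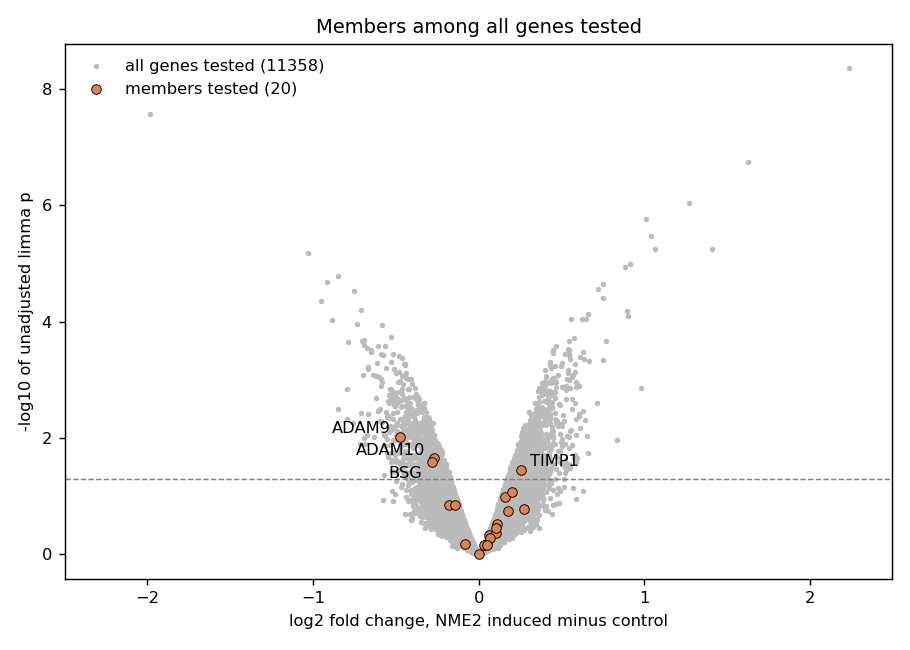
Log2 fold change (horizontal axis, NME2 induced minus control) against -log10 of the unadjusted limma p (vertical axis) for the 11358 genes tested in grey and the 20 members in colour; the dashed line marks an unadjusted p of 0.05. The members lie between -0.47 and 0.28, and 4 of them are above the line.

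Several members were read by more than 1 probe, and 0 of the 12 pairs of a further probe with the brightest one passed the adjusted threshold of the test of their difference, which 9 of 3556 pairs over all genes did in limma. The 32 genes had 49 probes, of which 32 were detected on at least 3 arrays; the 12 detected probes not used above belong to 7 genes. In a fit over all 19394 detected probes, 0 of the 32 passed the adjusted threshold, which 0.237% of all detected probes did. At an unadjusted p under 0.05 there were 9 of the 32, where there were 13.6% of all detected probes, and 5 of the 9 were among the 12 probes not used for a gene. Probes of 1 gene share its transcripts and are not independent of each other.

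Of these pairs, the smallest p belonged to CD44, whose transcripts are known for extensive alternative splicing. Its brightest probe was at 12.22, 12.27 and 12.26 in control arrays and at 12.26, 12.36 and 12.22 in those labelled NME2 induced. A second CD44 probe (ILMN_2348788), annotated to another transcript, was at 9.76, 9.63 and 9.73 against 9.21, 9.14 and 9.33. All 3 arrays labelled NME2 induced thus lay below all 3 control arrays, by more than the range within either group. The second probe had a log2 fold change of -0.48 (moderated SE 0.09, 95% interval -0.70 to -0.26, adjusted p = 0.122 in limma over all detected probes), and this was the smallest p of any member probe. Over the 16 alternatives in which probes were kept apart, its log2 fold change lay between -0.53 and -0.44, with limma adjusted p from 0.000811 to 0.327. It passed in 3 of them (an offset of 50, an offset of 50 together with a background correction that uses no detection p-values, and a fit with trend and robust options). The difference between the 2 probes, tested by limma over all 3556 such pairs after the values had been seen, was -0.51 (moderated SE 0.14, adjusted p = 0.222). The remaining CD44 probe, detected on 2 control arrays and 1 labelled NME2 induced, was at -0.08 (moderated SE 0.17).

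ADAM10 had a lower mean by both of its probes. The second probe (ILMN_2148360), annotated to the same transcript, was at 7.70, 7.43 and 7.88 in control arrays and at 7.36, 6.79 and 7.07 in those labelled NME2 induced, without overlap. Its log2 fold change was -0.60 (moderated SE 0.17, adjusted p = 0.226 in limma over all detected probes), beside -0.27 for the brightest probe. The difference between the probes was -0.33 (moderated SE 0.17, adjusted p = 0.506 in limma over all pairs).

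MMP7, PLAUR and TIMP2 each had a second probe with a larger positive difference than the brightest. For MMP7 it was at 7.50, 7.53 and 7.62 in control arrays and at 7.85, 7.76 and 7.82 in those labelled NME2 induced, and here the groups did not overlap (log2 fold change 0.26, moderated SE 0.09, adjusted p = 0.267 in limma over all detected probes). For PLAUR one further probe was at 6.55, 6.80 and 6.59 against 6.87, 7.13 and 7.06 (log2 fold change 0.37, moderated SE 0.11, adjusted p = 0.244 in limma), and another had a log2 fold change of 0.15 (moderated SE 0.12). The second probe of TIMP2 was at 6.92, 7.08 and 7.25 against 7.51, 7.21 and 7.73 and overlapped between the groups (log2 fold change 0.40, moderated SE 0.15, adjusted p = 0.325 in limma). The differences from the brightest probe were 0.08 for MMP7, 0.30 for PLAUR and 0.35 for TIMP2, with limma adjusted p of 0.878, 0.524 and 0.588 over all pairs.

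The 2 further probes of ADAM17 had log2 fold changes of 0.00 and -0.01. For ADAM15, 2 further probes were at -0.04 and -0.03. The remaining ADAM15 probe was detected on 3 control arrays and on 0 of the other group. It met the filter through the control arrays alone, where it was brighter, so its difference is given no weight.

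**Figure D4:**
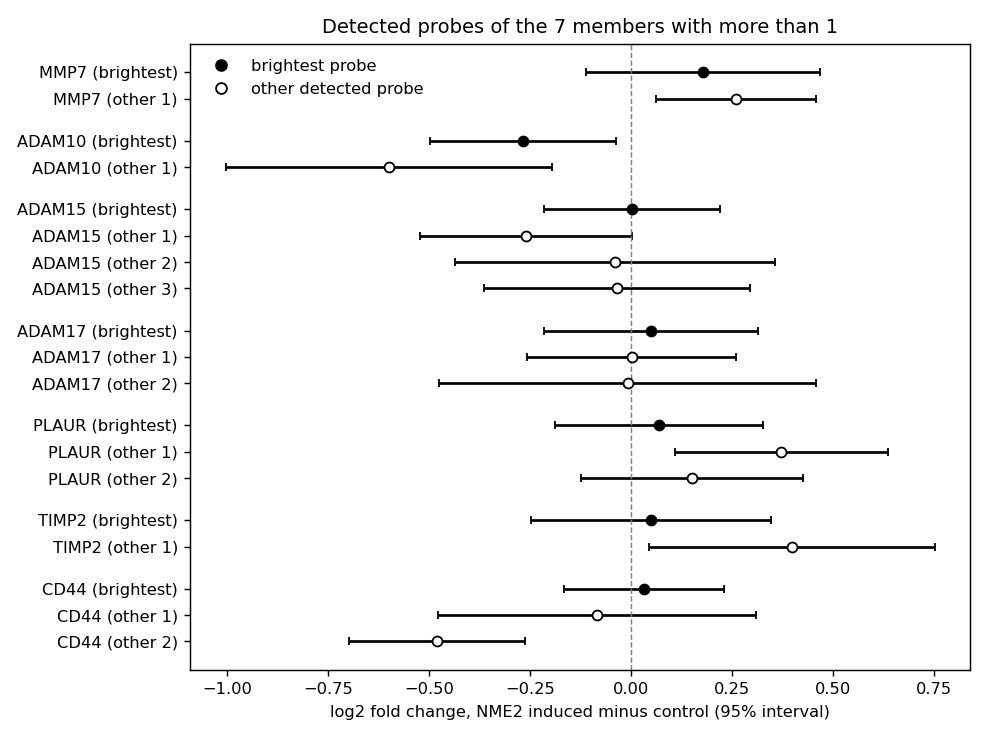
Log2 fold change (horizontal axis, NME2 induced minus control) with its unadjusted 95% interval for every detected probe of the 7 members that have more than 1; filled points mark the brightest probe of a gene and open points the others. The second ADAM10 probe lies at -0.60 and one of the other CD44 probes at -0.48, while the brightest CD44 probe lies at 0.03.

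Relatives of these genes were examined as a wider list of 88, made of the other MMPs, ADAM and ADAMTS proteases, plasminogen genes, membrane serine proteases, convertases, lysyl oxidases, hyaluronan enzymes, tetraspanins and syndecans. Of these, 79 had a probe of 1 symbol in the tables used here and 31 were tested. By limma 0 passed the adjusted threshold in either direction. Before adjustment 4 were higher and 1 lower at the same level of p, or 16.1% of those tested, close to the 14.5% of all genes. The median log2 fold change was 0.03.

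MMP28, or epilysin, known from keratinocytes and lung epithelium, had the smallest p of the wider list. It was at 5.03, 4.94 and 4.88 in control arrays and at 5.32, 5.33 and 5.26 in those labelled NME2 induced, without overlap (log2 fold change 0.35, moderated SE 0.08, 95% interval 0.17 to 0.54, adjusted p = 0.141 in limma). ADAM23, which lacks the catalytic zinc site and binds integrins, had a log2 fold change of 0.38 (moderated SE 0.13, adjusted p = 0.263 in limma). SDC4, or syndecan-4, a heparan sulfate proteoglycan of focal adhesions, was at 7.02, 6.55 and 6.94 against 7.17, 7.24 and 7.21 (log2 fold change 0.37, moderated SE 0.13, adjusted p = 0.271 in limma).

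MMP21 was detected on 1 control array and 3 labelled NME2 induced, at 4.47, 4.85 and 4.57 against 4.89, 4.94 and 4.89; it met the filter through the second group, where it was brighter, and is 1 of the 4 counted as higher, so its difference is given no weight. The inhibitor TIMP4 was at 8.03, 8.14 and 8.15 against 7.81, 7.79 and 7.997 (log2 fold change -0.24, moderated SE 0.09, adjusted p = 0.298 in limma). RECK, a membrane-anchored MMP inhibitor, had a log2 fold change of -0.21 (moderated SE 0.14). The tetraspanin CD81 had a log2 fold change of -0.15 (moderated SE 0.08), the convertase MBTPS1 of 0.23 (moderated SE 0.11), ADAMTS6 of 0.26 (moderated SE 0.12), and SERPING1, the C1 inhibitor, of 0.19 (moderated SE 0.10). Their limma adjusted p lay between 0.365 and 0.524.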

How the data were processed

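The deposited signals were intensities on a linear scale beside detection p-values, made by the authors with BeadStudio (named in the submitters' processing notes without a version). Both deposited tables held the same intensities, which shared a minimum of -44.94 and medians of 7.54 to 7.57 on all 6 arrays; background subtraction and quantile normalization thus seem to have been applied before deposit, although one table is named non-normalized, so differences in total brightness cannot be examined. Here they went through limma 3.58.1 (R 4.3.3): neqc with an offset of 16, lmFit and eBayes, with Benjamini-Hochberg adjustment over 11358 genes and a threshold of 0.05. The background in neqc was inferred from the detection p-values, and no control probe intensities were used. Symbols came from the platform annotation, matched by gene identifier to the reference table. The fit was tested on simulated data. Errors are SD over 3 arrays or moderated SE; precision is limited by their number. Slides and scan dates are not given in the sources used here. Probe intensities are not compared between genes. Alternatives were other background corrections, offsets, filters, probe rules, eBayes options, the methods' t-test, the replicate block and each array left out. Every member was to be named, with array values for those at an unadjusted p under 0.05 and those with the largest difference of each role, and up to 10 genes of the wider list by p. Members and lists were chosen with earlier results of these data known; the comparison of probes within genes was added after seeing the data.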

Additional observations from a re-analysis of the deposited data

How the results depend on the processing

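With 3 arrays per group, changes smaller than the intervals given could not be seen. The intervals are unadjusted, and larger changes could also miss the adjusted threshold. ADAM9 did so, at a log2 fold change of -0.47 (adjusted p = 0.212 in limma). For probes near background the interval does not bound the change of the transcript. Of the 20 members 0 passed the adjusted threshold by limma or, among the 17 alternatives, by the methods' t-test, and so did 0 of the wider list. Of 338 log2 fold changes of members under the alternatives, 327 kept their direction. Part of these were equal to the main values and are no test of direction. The log2 fold changes stayed as they were with the other deposited table, the filters and the eBayes options. The same holds for the replicate block and the methods' t-test. With the mean of the detected probes, ADAM15 was at -0.082 and CD44 at -0.18. The other reversals came with 1 array left out, for ADAM15 (range -0.053 to 0.041), ADAM17 (-0.028 to 0.14), CD44 (-0.0075 to 0.064), PLAUR (-0.019 to 0.12), TIMP2 (-0.054 to 0.13) and TIMP3 (-0.28 to 0.032). MMP10 and TIMP3 have no value where detection on all 6 arrays was required. Member probes passed as lower in 3 alternatives: 1 with an offset of 50 (the second probe of CD44), and 2 with that offset and normexp without detection p-values, and with the trend and robust options (that probe and the second probe of ADAM10). At an unadjusted p, 4 members were higher with the mean of the detected probes (7.12% of all genes), and 0 with the replicate block (6.46%) and with the methods' t-test (6.95%). With the mean of probes 6 members were higher without overlap (10.9% of all genes), and the median was 0.084. With 1 array left out, the median lay between 0.026 and 0.070, between 3 and 6 members were higher without overlap (15.2% to 17.5% of all genes) and between 3 and 6 lower (14.9% to 17.1%; 6 higher without control replicate 2, 6 lower without NME2 induced replicate 2), the unadjusted counts were 0 to 2 higher (5.54% to 7.17% of all genes) and 1 to 3 lower (5.34% to 7.11%), and over all genes 4 to 9 were higher and 2 lower, as against 18 and 10, whichever array was left out. The counts over all genes were 6 lower without background correction and 5 lower without a filter on dim probes. They were 74 and 49 with an offset of 50, 83 and 65 with that offset and normexp without detection p-values, 39 and 30 with detection on all 6 arrays, and 163 and 137 with trend and robust options. They were 10 and 3 with the methods' t-test, and 4 and 1 with the replicate block. Deviations of same-numbered arrays correlated at 0.03, -0.04 and -0.04. Whether arrays of the same number shared a culture day or a slide is not given in the sources used here.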
